A study of Mus musculus with 6 samples.

Results

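The Hedgehog signaling genes described here are Dhh, Ihh, Ptch1, Hhip, Smo, Gli1, Gli2 and Gli3, the 8 gene models with these symbols among the 47122 models of the deposited table. They were measured by RNA sequencing of whole ovaries of newborn mice at 1 day post partum (dpp). The groups were 3 samples in which Bcas2 had been deleted in oocytes (BCAS2 cKO, a conditional knockout) and 3 wild-type samples (WT). BCAS2 is a subunit of a splicing complex, and the deletion was made in the germ cells, whereas Hedgehog genes are known mainly from the somatic cells around them. The driver and the exons of the deletion, the strain, any allele that the WT animals carried, and whether a sample was a single animal or a pool were not stated in the labels. The p-values therefore measure only the spread between these samples, which may be technical. A note in the labels names the function of granulosa cells, while the title and tissue name the ovary.

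Hedgehog proteins are secreted ligands that bind the receptor PTCH1. Without ligand, PTCH1 keeps the membrane protein SMO inactive, and with ligand SMO signals through the primary cilium to the GLI transcription factors. GLI1 is an activator, GLI2 acts mainly as an activator and GLI3 mainly as a repressor, while Gli1, Ptch1 and Hhip are themselves targets of the pathway. In the mouse ovary, Dhh and Ihh are known from granulosa cells of growing follicles, and Gli1 and Ptch1 from the mesenchyme that gives rise to the steroid-producing theca layer. At birth most follicles are only being formed.

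Levels are FPKM, fragments scaled by gene length and by a library size, so genes can be compared within a library. Comparisons between samples rest on the library size that was used. The libraries held 16800421 to 19565275 recovered reads each. The library size implied by the values was 0.962 (WT replicate 1) to 1.03 (cKO replicate 1) times these reads. In the check of the labels, Bcas2 was at 18.9, 21.9 and 18.3 FPKM in the cKO libraries and at 54.5, 37.5 and 35.7 FPKM in the WT libraries. Its log2 fold change was −1.05, with an unadjusted limma p of 0.00050 and an adjusted p of 0.955. The deleted gene itself thus did not pass an adjusted p under 0.05. All 10 listed oocyte genes and all 10 listed pregranulosa genes passed the filter on low values. WT replicate 1 stood apart from the other 5 libraries. Its summed level of 10 stroma genes was 1419 FPKM, against 412.6 to 534.6 FPKM in cKO and 412.9 to 672.4 FPKM in WT replicates 2 and 3, and all 10 were highest there. The 10 endothelial genes, also all highest there, summed to 191.9 FPKM, against 54.3 to 69.2 FPKM in cKO and 46.0 and 69.7 FPKM in the other WT libraries. The 10 pericyte and smooth muscle genes, 8 of them highest there, summed to 89.4 FPKM, against 24.5 to 31.4 FPKM in cKO and 20.6 and 27.7 FPKM in the other WT libraries. No gene of these lists was listed at 0 in all libraries. Conversely 10 surface epithelium genes summed to 256.1 FPKM in WT replicate 1, against 572.7 to 678.2 FPKM in cKO and 594.7 and 690.0 FPKM in the other WT libraries. Some markers of the mesonephros and oviduct were higher in cKO: in a list of 10, 5 had an unadjusted limma p under 0.05 and 3 did not overlap, all of them higher, with 0 called; over all tested genes these shares were 1.89% and 4.2%. Foxj1, at 1 FPKM or more in the 3 cKO libraries alone, and Cldn3, in these and 1 WT library, passed the filter through the group where they were high. Pax8, picked for its values, was above 1 FPKM in all 6 libraries, at 4.34, 2.96 and 3.74 FPKM in cKO and 2.502, 1.46 and 1.43 FPKM in WT. The 10 markers summed to 89.4 to 106.9 FPKM in cKO and 76.3 to 91.1 FPKM in WT, mostly from Emx2 and Epcam, whose groups overlapped, and their part in the results was not tested. A list of 10 immediate-early and heat-shock genes, which respond to tissue handling, summed to 58.5 to 82.2 FPKM in cKO. In WT replicates 1 to 3 the sums were 198.3, 551.0 and 66.4 FPKM. Among the 9 tested, 2 had an unadjusted limma p under 0.05, both lower in cKO, against 1.14% of all tested genes, with 0 called. Their median log2 fold change was −0.90 (−0.87 without WT replicate 1), and the part of handling in the results was not tested. The library cKO replicate 2 was high in red blood cell genes, with a sum of 13705 FPKM against 405.8 to 1238 FPKM in the others. Values without WT replicate 1 are given beside the results that it changes most.

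The 8 genes differed widely in level, and their order was nearly the same in every library. Smo was the highest, with a mean of 42.2 FPKM over the 6 libraries, followed by Ptch1 at 16.5 FPKM and Gli3 at 4.41 FPKM. Gli1 followed at 2.04 FPKM, Gli2 at 1.15 FPKM, Dhh at 0.293 FPKM, Ihh at 0.105 FPKM and Hhip at 0.0277 FPKM. Each gene was above the next in all 6 libraries, except that Gli1 and Gli2 changed places between libraries. Gli1 exceeded Gli2 in all 3 cKO libraries and in 1 of the 3 WT libraries, replicate 1. The receptor side of the pathway was read far more deeply than the ligands: Smo had 2485 to 3892 reads, Dhh 17 to 51 and Ihh 3 to 7.

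No member passed the test. At an adjusted p under 0.05 in limma 0 of the 3 members that passed the filter on low values rose and 0 fell, as did 0% of the 14589 genes tested. The 3 were Smo, Ptch1 and Gli3, each above 1 FPKM in all 6 libraries, so the filter did not depend on their difference. Gli1 reached 1 FPKM in 2 libraries, Gli2 in 1, and Dhh, Ihh and Hhip in 0. When all 33311 genes above 0 in some library were tested without a filter, the adjusted p of the 8 members lay between 0.907 and 0.975. Over all tested genes, 443 or 3.04% had an unadjusted p under 0.05, with 1.89% higher and 1.14% lower in cKO; the reach to each side of the 95% interval had a median of 0.35 log2 units. Without cKO replicate 2 limma called 1 gene, no member, or 0.00685%. Groups did not overlap for 1 of the 8 members, Ptch1, against 7.18% of all genes above 0 in either direction, 4.1% higher and 3.08% lower in cKO. In whole ovaries, fewer cells of a type and less RNA per cell cannot be told apart, and this holds for every value given here.

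**Figure D1:**
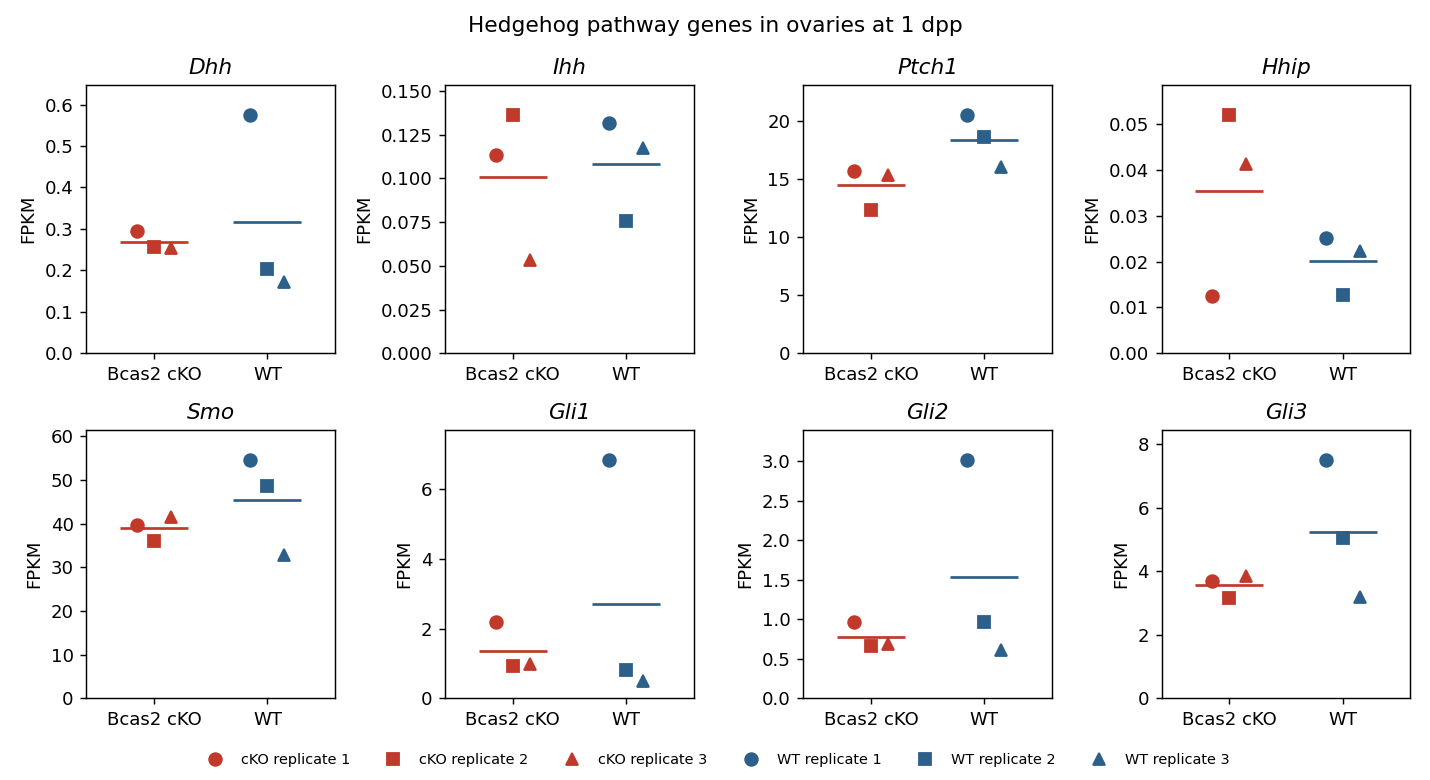
FPKM (vertical axes, linear, starting at 0) of the 8 Hedgehog genes in the Bcas2 cKO and WT libraries; each point is a library and each line a group mean. For Ptch1 all 3 cKO points lie below all 3 WT points, and for Gli1, Gli2, Gli3 and Dhh the WT replicate 1 point is the highest.

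Among the ligands, Dhh, the desert hedgehog gene, was low in both groups. It was at 0.294, 0.257 and 0.255 FPKM in cKO and at 0.575, 0.204 and 0.171 FPKM in WT. The cKO values lay close together, between WT replicate 1 and the other WT libraries, so the groups overlapped. Mean levels were 0.269 ± 0.0221 FPKM in cKO and 0.317 ± 0.225 FPKM in WT (SD, n = 3 each), a ratio of 0.848. Without WT replicate 1, the highest library for Dhh, the ratio of means was 1.43. The exact two-sided permutation test over all 6 libraries gave p = 1.0.

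Ihh, the Indian hedgehog gene, was lower still. Its values were 0.113, 0.136 and 0.0531 FPKM in cKO and 0.132, 0.0756 and 0.118 FPKM in WT, and the groups overlapped throughout their ranges. They rest on 16 reads in all cKO libraries together (exact Poisson 95% interval 9.15 to 26.0, counting error only) and 18 in all WT libraries (10.7 to 28.5). So few reads allow no comparison of the groups, and the spread between replicates comes on top of counting error. Shh, the third mammalian ligand, was at 0.0401, 0.166 and 0.0188 FPKM in cKO and at 0.0601 and 0.0603 FPKM in WT replicates 1 and 2. It was listed at 0 in WT replicate 3, where a count of 0 allows up to 3 reads or 0.0536 FPKM. Its 11 reads in cKO and 6 in WT likewise allow no comparison. Dhh was the highest of the ligands in every library, at 1.46 to 4.80 times the level of Ihh.

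Most genes for the acylation, release and spread of the ligands were at higher levels than Dhh and Ihh. Of a list of 7 genes, which also holds the ligand gene Shh, 5 could be tested. Shh and Disp2, a relative of the ligand-release gene Disp1, were too low, and Disp2, at a mean of 0.0483 FPKM over the 6 libraries, lay below both Dhh and Ihh. Among the 5, none passed (0 rose, 0 fell), and all 5 had a lower mean in cKO. Their median log2 fold change was −0.50, against −0.0058 over all tested genes, and −0.15 without WT replicate 1. Scube2, whose secreted product helps release lipid-modified ligand, was at 4.65, 2.65 and 6.08 FPKM in cKO and at 9.74, 7.74 and 5.93 FPKM in WT. Only cKO replicate 3 reached the WT range, and limma gave a log2 fold change of −0.72 (SE 0.27), an unadjusted p of 0.0328 and an adjusted p of 0.955. Leaving out cKO replicate 2 gave −0.45 (unadjusted limma p 0.0840) and leaving out WT replicate 1 gave −0.56 (p 0.0855). Scube3, a relative of Scube2, was at 4.33, 3.34 and 4.35 FPKM in cKO and at 8.83, 5.27 and 4.63 FPKM in WT, without overlap (log2 fold change −0.50, SE 0.22; −0.25 without WT replicate 1). Scube3 and Disp1 were the 2 of the 5 that were lower in cKO without overlap, as were 3.67% of all tested genes. Hhat, the acyltransferase that adds palmitate to the ligands, was at 4.79 ± 0.645 FPKM in cKO and 5.64 ± 0.474 FPKM in WT (SD, n = 3 each), with overlapping groups. Scube1, singled out for its values, stood at 9.998 FPKM in WT replicate 1, against 1.61 to 2.25 FPKM in cKO and 1.31 and 2.22 FPKM in the other WT libraries.

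Ptch1, which encodes the Hedgehog receptor and is a target of the pathway, was the member with the clearest separation of the groups. It lies on the minus strand of chromosome 13 from position 63656142 to 63721274 (GRCm39; identifier 19206) and is free of overlap with other gene models. It was at 15.8, 12.3 and 15.4 FPKM in cKO and at 20.6, 18.6 and 16.05 FPKM in WT. Every cKO value was below every WT value, though cKO replicate 1 and WT replicate 3 lay close together. The means were 14.5 ± 1.87 FPKM in cKO and 18.4 ± 2.27 FPKM in WT (SD, n = 3 each), a ratio of 0.787. The fitted log2 difference was −0.33 (SE 0.14, 95% interval −0.65 to −0.0059), with an unadjusted limma p of 0.0469 and an adjusted p of 0.955, so the difference did not pass. Genes with an unadjusted p under 0.05 and a lower level in cKO made up 1.14% of those tested, and genes with lower values in cKO without overlap 3.67%. By exact permutation p was 0.1, the least that 3 against 3 can reach. Groups that do not overlap cannot come to overlap when a library is left out. Without WT replicate 1 the log2 fold change was −0.25 and the unadjusted limma p was 0.123. It was −0.22 with an unadjusted limma p of 0.149 without cKO replicate 2, which held the lowest Ptch1 value. Leaving out WT replicate 3 instead gave −0.42, with an unadjusted limma p of 0.0222 and an adjusted p of 0.599.

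The sequence before a RefSeq start site of Ptch1 is given because Ptch1 is both a member whose groups did not overlap and a GLI target. It is the RefSeq promoter of the GRCm38.p6 build, a different build from that of the deposited coordinates: the 250 bases before the start, on the minus strand at chr13:63565736-63565985, 5′ to 3′, of which 78.4% are G or C.
Ptch1: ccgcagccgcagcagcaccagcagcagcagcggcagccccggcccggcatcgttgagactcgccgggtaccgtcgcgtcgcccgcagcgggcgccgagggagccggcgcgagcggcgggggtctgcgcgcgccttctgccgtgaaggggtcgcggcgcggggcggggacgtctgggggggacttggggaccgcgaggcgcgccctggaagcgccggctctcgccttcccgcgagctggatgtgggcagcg
The GLI consensus nonamer GACCACCCA, searched on both strands (as TGGGTGGTC on the other), has no match in this stretch or in the further 50 bases after the start. The promoter table held 7 of the 8 members, all but Gli1, and the nonamer was in 0 of these 7 windows (250 bases before and 50 after the start), against 83 of all 32851 windows, or 0.253%. The search says only that these letters are not in these windows. Where the Ptch1 window lies relative to the outer end of the gene model of the deposited coordinates was not checked.

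Hhip, which encodes a membrane protein that binds and sequesters Hedgehog ligands, was barely read. Its levels were 0.0126, 0.0520 and 0.0414 FPKM in cKO and 0.0251, 0.0126 and 0.0224 FPKM in WT, with overlapping groups. The ratio of means was 1.76, but it rests on 17 reads in cKO (exact Poisson 95% interval 9.90 to 27.2, counting error only) and 10 in WT (4.80 to 18.4). The intervals overlap, which is not a test of the groups. Thus of the 3 target genes among the members, Ptch1 was at 12.3 FPKM or more in every library while Hhip reached 0.0520 FPKM at most.

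Smo, which encodes the signal-transducing membrane protein, was at 39.7, 36.1 and 41.5 FPKM in cKO and at 54.6, 48.5 and 32.9 FPKM in WT. The cKO libraries lay within the wider WT range. Means were 39.1 ± 2.76 FPKM in cKO and 45.3 ± 11.2 FPKM in WT (SD, n = 3 each), and the fitted log2 difference was −0.18 (SE 0.19, 95% interval −0.62 to 0.26, limma adjusted p = 0.955). The WT libraries decided its size: it was −0.03 without WT replicate 1 and −0.39 without WT replicate 3. A pseudogene row within Smo, Gm13717, held at most 5 reads. Ptch1 stood at 0.397, 0.342 and 0.370 times the Smo level in cKO and at 0.377, 0.384 and 0.488 times in WT, with overlapping groups.

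Most co-receptors were well expressed, whereas Lrp2, at 0.466 to 1.28 FPKM, did not pass the filter. Of the 4 in the list, 3 passed the filter, 0 rose, 0 fell, and the median log2 fold change was −0.15, or −0.16 without WT replicate 1. Gas1, a membrane-anchored co-receptor, was the highest, at 50.5, 46.3 and 56.8 FPKM in cKO and at 85.5, 69.1 and 48.9 FPKM in WT, with overlapping groups (log2 fold change −0.37, SE 0.20; −0.19 without WT replicate 1). Boc, an immunoglobulin-family co-receptor, was at 21.7 ± 3.17 FPKM in cKO and 24.4 ± 4.31 FPKM in WT, and its relative Cdon at 7.72 ± 1.35 FPKM in cKO and 8.15 ± 1.73 FPKM in WT (SD, n = 3 each).

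Transduction genes, which act between SMO and the GLI factors or build the cilium, lay close to equal levels. All 16 in the list passed the filter, 0 rose, 0 fell, and 13 had a lower mean in cKO, against 51.3% of all tested genes. Without WT replicate 1 the number with a lower mean was 10, and with all libraries the log2 fold changes had a median of −0.06. Sufu, which encodes the inhibitor that holds GLI proteins, was at 10.6 ± 1.88 FPKM in cKO and 12.4 ± 2.52 FPKM in WT, a log2 fold change of −0.20; leaving out WT replicate 1 gave −0.07, as did leaving out cKO replicate 2. Arl13b, a small GTPase of the cilium, was at 4.24, 3.64 and 4.12 FPKM in cKO and at 5.31, 5.32 and 4.27 FPKM in WT, without overlap (log2 fold change −0.25, SE 0.13, limma adjusted p = 0.955). Ift172, a part of the intraflagellar transport machinery, did not overlap either, at 11.5 ± 0.493 FPKM in cKO and 12.8 ± 0.702 FPKM in WT. These were the 2 of the 16 that were lower in cKO without overlap, as were 3.67% of all tested genes. Arl13b, Ift172 and Csnk1a1 are named because they had the smallest unadjusted limma p of the list. Csnk1a1, a kinase that phosphorylates GLI proteins, was at 45.1 ± 2.30 FPKM in cKO and 49.3 ± 2.87 FPKM in WT (SD, n = 3 each).

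Levels of the GLI factors varied between WT libraries, most of all for Gli1. It was at 2.18, 0.941 and 0.988 FPKM in cKO and at 6.83, 0.802 and 0.503 FPKM in WT, a range of 13.6-fold over the 6 libraries. WT replicate 1 was highest, at 436 reads, and the other WT libraries, at 51 and 36 reads, were the lowest of all 6. The share of all genes in such an order was not counted. The mean was 1.37 ± 0.704 FPKM in cKO and 2.71 ± 3.57 FPKM in WT (SD, n = 3 each), a ratio of 0.505, and the exact permutation test gave p = 1.0. Without WT replicate 1, the highest library for Gli1, the ratio was 2.10. The direction of Gli1 is therefore set by that library, and the adjusted p without a filter, over all libraries, was 0.948 in limma. Gli1 shares 66 bases with Arhgap9 on the other strand, which held at most 80 reads.

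Gli2 followed a similar course with a smaller range. It was at 0.966, 0.668 and 0.685 FPKM in cKO and at 3.02, 0.963 and 0.613 FPKM in WT. The 5 libraries other than WT replicate 1 lay between 0.613 and 0.966 FPKM, with the groups interleaved. The ratio of group means was 0.505 with all libraries and 0.981 without WT replicate 1, and the exact permutation p was 0.7.

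Gli3 was the most abundant of the GLI genes in every library. It was at 3.69, 3.16 and 3.86 FPKM in cKO and at 7.51, 5.05 and 3.19 FPKM in WT. WT replicates 1 and 2 were above all cKO libraries and WT replicate 3 was within them. Means were 3.57 ± 0.365 FPKM in cKO and 5.25 ± 2.16 FPKM in WT (SD, n = 3 each), and the fitted log2 difference in limma was −0.40 (SE 0.25, 95% interval −0.99 to 0.20, adjusted p = 0.955). The value was −0.14 without WT replicate 1 and −0.65 without WT replicate 3. Gli3 shares 896 bases with Gm6556, a non-coding RNA gene on the other strand with up to 170 reads per library, against 453 to 1114 for Gli3. Without a stated strand setting, reads of that stretch cannot be assigned to either.

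The makeup of the GLI pool also moved with WT replicate 1. Gli1 supplied 31.9%, 19.7% and 17.9% of the summed FPKM of the 3 GLI genes in cKO and 39.4%, 11.8% and 11.7% in WT. Gli3 supplied 53.9%, 66.3% and 69.8% in cKO and 43.3%, 74.1% and 74.1% in WT. WT replicates 2 and 3 were nearly alike and had the smallest Gli1 share. The Gli1 level per Ptch1 level was 0.139, 0.0763 and 0.0643 in cKO and 0.332, 0.0431 and 0.0314 in WT. These targets of the pathway thus did not keep a fixed proportion, since Ptch1 ranged 1.67-fold over the 6 libraries and Gli1 13.6-fold.

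**Figure D2:**
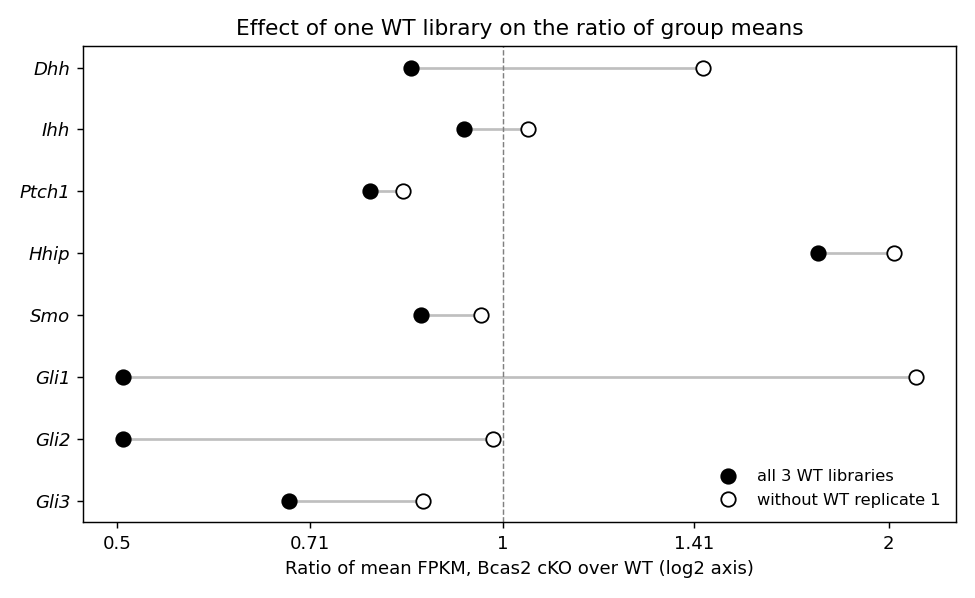
Ratio of mean FPKM, Bcas2 cKO over WT (horizontal log2 axis), for each of the 8 Hedgehog genes with all 3 WT libraries (filled) and without WT replicate 1 (open). Gli1 lies at 0.505 and at 2.10, and Dhh at 0.848 and at 1.43. Ptch1 lies at 0.787 and 0.836, and since its groups did not overlap, leaving out a library could not bring it to 1.

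High values in WT replicate 1 came in the library with the highest sums of stroma, endothelial, and pericyte and smooth muscle markers. That library also had the lowest sums of surface epithelium and oocyte markers. Of the 8 members 6 were highest there, all but Ihh and Hhip, as were 22.8% of all genes above 0. The margin over the next library was 3.13-fold for Gli1 and for Gli2, 1.96-fold for Dhh, 1.49-fold for Gli3, 1.13-fold for Smo and 1.10-fold for Ptch1. The stroma list summed to 534.6, 412.6 and 467.3 FPKM in cKO and to 1419, 672.4 and 412.9 FPKM in WT. The oocyte list summed to 1220, 1434 and 1081 FPKM in cKO and to 970.2, 1017 and 1462 FPKM in WT. WT replicate 2, with the next highest stroma sum, also had the next highest Gli3, Smo and Ptch1 levels. For Gli1, Gli2 and Dhh the next highest level was in cKO replicate 1, though for Gli2 WT replicate 2 was nearly equal. The part of any of these cell types in the results was not tested.

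**Figure D3:**
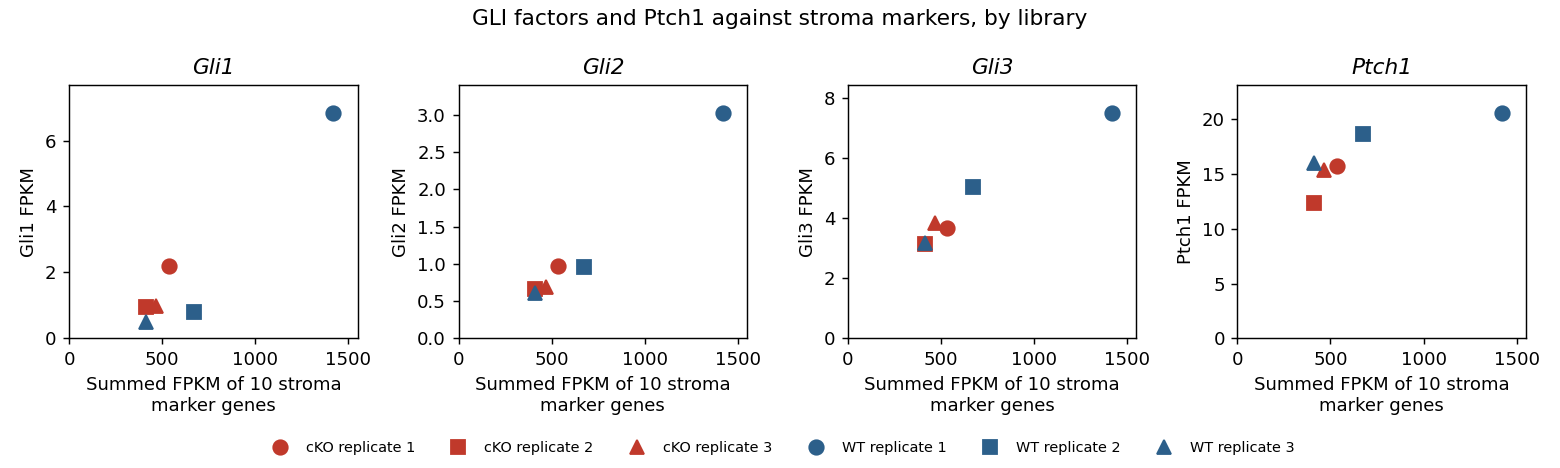
FPKM of Gli1, Gli2, Gli3 and Ptch1 (vertical axes, linear, from 0) against the summed FPKM of 10 stroma marker genes (horizontal axes) in each of the 6 libraries, with cKO in red and WT in blue. WT replicate 1, at a stroma sum of 1419 FPKM, is the highest point in each panel.

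Other known Hedgehog target genes overlapped between the groups. Of 10 listed, 4 passed the filter, with 0 that rose, 0 that fell and a median log2 fold change of −0.24 (−0.13 without WT replicate 1). Bcl2, a survival gene, was at 4.64 ± 0.530 FPKM in cKO and 6.26 ± 2.58 FPKM in WT, and Osr1, a transcription factor of intermediate mesoderm, at 3.24 ± 0.351 FPKM in cKO and 4.43 ± 2.21 FPKM in WT (SD, n = 3 each). Both were highest in WT replicate 1. Without that library the log2 fold change was −0.04 for Bcl2 (−0.31 with it) and 0.02 for Osr1 (−0.27 with it). Mycn, a proliferation-linked transcription factor, was at 14.2, 12.8 and 18.1 FPKM in cKO and at 16.8, 21.1 and 14.6 FPKM in WT, with overlap.

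Most theca precursor genes were present, though Lhx2 lay at only 0.0311 to 0.249 FPKM, and all overlapped between the groups. Of 9 listed, 8 passed the filter, 0 rose, 0 fell, and the median log2 fold change was −0.30, but 0.07 without WT replicate 1. Tcf21, Pdgfra and Nr2f2 stand also in the stroma list, and Nr5a1 and Gata4 in the pregranulosa list. Wt1, a transcription factor of gonadal somatic cells, was at 122.3 ± 10.1 FPKM in cKO and 135.1 ± 22.9 FPKM in WT, and Gata4, a gonadal transcription factor, at 69.2 ± 9.21 FPKM in cKO and 84.97 ± 22.5 FPKM in WT (SD, n = 3 each). Without WT replicate 1 the log2 fold change was −0.07 for Wt1 (−0.13 with it) and −0.08 for Gata4 (−0.27 with it). Pdgfra, a growth factor receptor of mesenchyme, was at 11.4, 7.29 and 7.30 FPKM in cKO and at 33.2, 9.38 and 7.48 FPKM in WT. Nr2f2, a nuclear receptor of stromal and theca cells, was at 7.13, 6.23 and 8.51 FPKM in cKO and at 23.2, 8.03 and 5.85 FPKM in WT. Tcf21, a mesenchymal transcription factor, was at 44.9, 36.0 and 36.6 FPKM in cKO and at 95.9, 41.5 and 27.4 FPKM in WT. In Pdgfra, Nr2f2 and Tcf21 WT replicate 1 was at least 2.14 times the next library, and the sign of the log2 fold change turned without it, with values of 0.01 for Pdgfra, 0.07 for Nr2f2 and 0.20 for Tcf21.

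Genes of steroid production in a formed theca differed widely in level, and most were low. Of 7 genes 6 passed the filter, 0 rose, 0 fell, and the median log2 fold change was 0.14. Hsd3b1, a hydroxysteroid dehydrogenase, was the exception, at 38.3, 33.0 and 31.1 FPKM in cKO and at 39.0, 28.7 and 28.1 FPKM in WT, with overlap. Cyp17a1, the androgen-forming enzyme of theca cells, was at 1.09, 0.678 and 1.53 FPKM in cKO and at 0.842, 1.53 and 1.17 FPKM in WT, with full overlap. Star, which carries cholesterol into mitochondria, was at 5.13, 6.30 and 6.03 FPKM in cKO and at 3.64, 5.12 and 5.10 FPKM in WT. Its groups did not overlap, though the lowest cKO and the highest WT values nearly met (log2 fold change 0.29, SE 0.15, limma adjusted p = 0.955; 0.15 without WT replicate 1). Lhcgr, the luteinizing hormone receptor gene, was at 1.12, 1.20 and 1.66 FPKM in cKO and at 0.712, 0.882 and 1.03 FPKM in WT, also without overlap (log2 fold change 0.31, SE 0.17, limma adjusted p = 0.955), where 4.2% of tested genes were higher in cKO without overlap. Cyp11a1, the enzyme that starts steroid synthesis, was at 1.33 ± 0.0901 FPKM in cKO and 1.12 ± 0.522 FPKM in WT (SD, n = 3 each). Lhcgr reached 1 FPKM in all cKO libraries but in a single WT library, so its higher level in cKO helped it pass the filter. Gdf9, the oocyte growth factor known in mice to act upstream of granulosa cell Hedgehog ligands, was at 7.40, 6.99 and 9.17 FPKM in cKO and at 7.94, 8.30 and 13.4 FPKM in WT, with overlap.

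**Figure D4:**
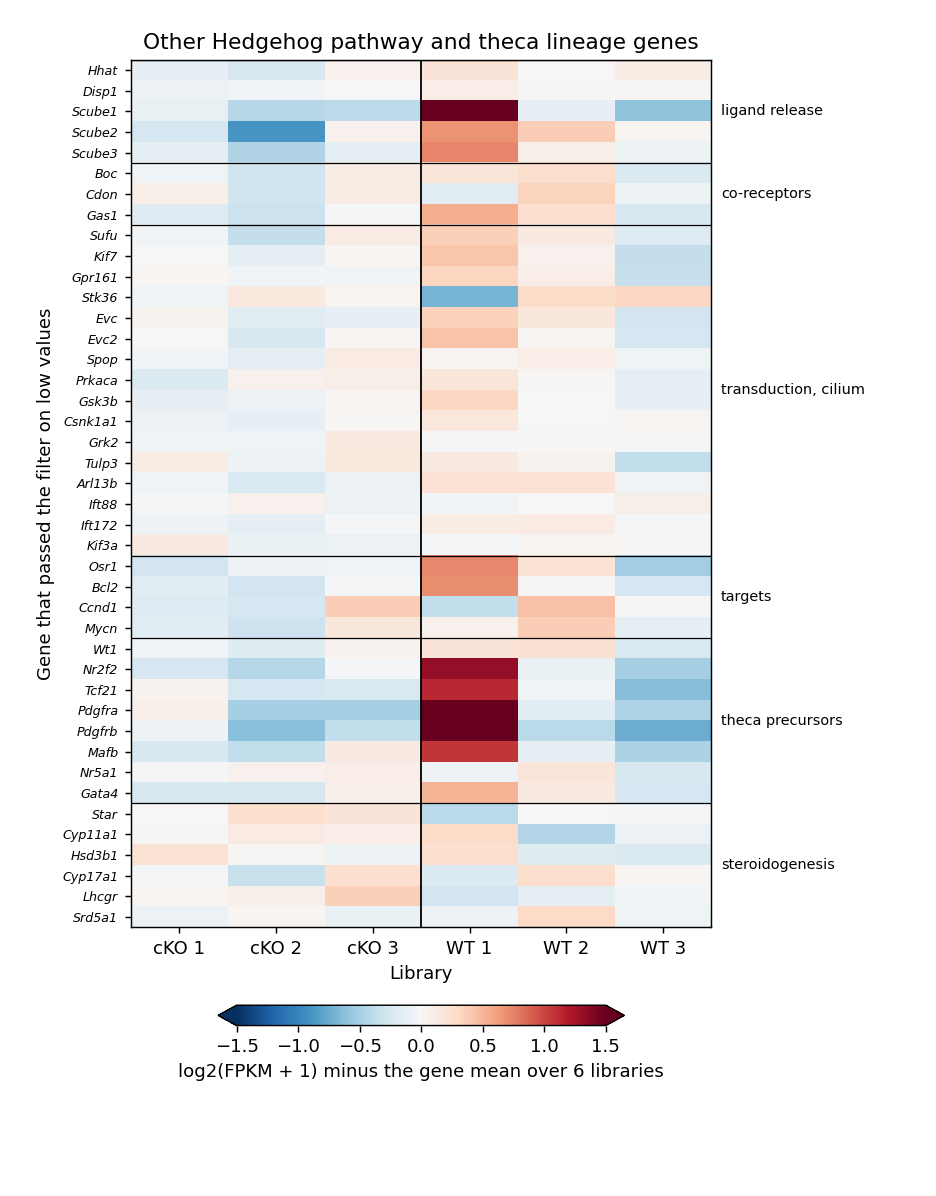
Each row is a gene of the other Hedgehog and theca lists that passed the filter and each column a library; color gives log2(FPKM + 1) minus the gene's mean over the 6 libraries, with values beyond 1.5 drawn at the end colors. The WT 1 column is darkest red in the theca precursor rows, where 6 of the 8 genes are highest in that library.

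The genes most like Gli1 and Ptch1 across the libraries were found by Pearson's r of log2(FPKM + 1) among 8842 and 8841 protein-coding genes with a mean of at least 5 FPKM, as a description over 6 libraries that share depth and tissue makeup. For Gli1 they were Akr1c14 (r = 0.992), a hydroxysteroid dehydrogenase, Cavin2 (0.992), a caveola protein, Zfp512b (0.989), Cpsf7 (0.989), a cleavage factor of mRNA 3′ ends, and Gxylt1 (0.987). Akr1c14 was at 52.6, 43.1 and 44.4 FPKM in cKO and at 77.5, 39.9 and 40.7 FPKM in WT, so that WT replicate 1 was again highest and cKO replicate 1 next. For Ptch1 they were Wdr35 (r = 0.987), an intraflagellar transport protein, Syne2 (0.986), a nuclear envelope protein, Eml3 (0.981), a microtubule-associated protein, Adam17 (0.979), a membrane protease, and Tbl2 (0.979). Syne2 was at 21.3, 17.7 and 21.1 FPKM in cKO and at 28.0, 25.4 and 20.9 FPKM in WT, with WT replicate 3 inside the cKO range. In the search over this many genes high values of r arise readily, and they carry no test.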

How the data were processed

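RNA sequencing of ovaries gave 1 library per sample, 3 Bcas2 cKO and 3 WT, grouped by the sample titles; columns were matched to samples by their descriptions. The authors deposited FPKM values with gene lengths and GRCm39 sequence accessions. Alignment tool HISAT2 2.0.5 and 2 builds, GRCm39 and mm10, are listed per the submitters' processing notes; no source used here states the counting tool, annotation release, strand setting or filters. Multiplying FPKM by gene length and dividing by the value of 1 read in that library gave whole reads (100% of values within 0.05). Median-of-ratios factors of the deposited FPKM were 1.001 in every library, so these values already stood on that scale. Replicates differed by more than sampling noise (chi-square per degree of freedom 13.3 to 66.6).

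Values were tested as log2(FPKM + 1), a scale that understates the change of low genes, without further scaling. Genes with at least 1 FPKM in at least 3 of 6 libraries were kept. Groups were tested using limma 3.58.1 under R 4.3.3 (trend in the prior spread, two-sided, Benjamini-Hochberg adjustment over all tested genes, threshold 0.05), tested first on simulated data. Exact permutation tests used scipy 1.17.1. Intervals on reads cover counting error only. Named genes were the 8 members, Bcas2, a fixed set from each list and up to 3 tested genes per list ranked by p. RefSeq promoters (GRCm38.p6) matched 7 of 8 members by symbol. Alternatives were other pseudocounts (0.1, 0.5), no filter or 5 FPKM, TPM, median-of-ratios scaling, a replicate block, limma-voom on recovered reads and leaving out each library. The members and lists were chosen with earlier results of these data known, and some list genes are not reported here.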

Additional observations from a re-analysis of the deposited data

How the results depend on the processing

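No Hedgehog member passed the threshold under any of the alternatives run. The count over all genes stayed at 0, except for 1 gene, the pseudogene Pcna-ps2, without cKO replicate 2, so leaving out single libraries gave 0 to 1. At an unadjusted p under 0.05 limma gave 443 genes, limma-voom on recovered reads 381 and the fits without single libraries 253 to 1056. Ptch1, Smo and Gli3 kept their negative sign in every setting that could be fitted, at −0.42 to −0.22, −0.39 to −0.03 and −0.65 to −0.14. For Ptch1 no left-out library could turn the sign, since its groups did not overlap. Ptch1 had an unadjusted limma p under 0.05 in 7 of 14 settings. Except for the fit without WT replicate 3 (p 0.0222), these 7 refit the same 6 libraries with another pseudocount, filter or scaling, so they are not separate support. In limma-voom on recovered reads its unadjusted p was 0.0569. Signs of other named genes turned only when single libraries were left out, and the cause was not tested. The log2 fold changes ran from −0.16 to 0.085 for Cdon, −0.84 to 0.066 for Nr2f2 and −0.68 to 0.20 for Tcf21. They ran from −0.99 to 0.014 for Pdgfra, −0.60 to 0.018 for Osr1 and −0.21 to 0.089 for Cyp17a1. For Cyp11a1 the range was −0.0089 to 0.35, and for Shh, which was below the filter, −0.014 to 0.083. Among the members below the filter, Gli1 was at −0.26 with all libraries and 0.49 without WT replicate 1, and Dhh at −0.04 and 0.10; Ihh lay between −0.03 and 0.02 over the fits without single libraries. Deviations of same-numbered samples from their group means correlated at 0.22, 0.01 and −0.03, and those of differently numbered samples at −0.345 to 0.318. With 3 samples per group these values cannot show whether the replicate numbers of the titles pair the samples. With the replicate block 0 genes passed and Ptch1, at −0.33, had an unadjusted limma p of 0.061. Depth limits Dhh, Ihh, Shh and Hhip, which rest on 158 reads or fewer over all 6 libraries.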
